A study of Mus musculus with 16 samples.

Results

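Il17a, the gene of the cytokine interleukin-17A (IL-17A), was followed across 16 Affymetrix arrays of mouse CD4+ T cells. It was read by 1 probe set, 1421672_at, the only one to which the platform annotation gives the single symbol Il17a, out of 45037 probe sets that name 18193 genes. The arrays fall into 8 groups of 2, made by 2 genotypes and 4 culture conditions. STAT3-deficient cells (genotype CD4 Cre; STAT3floxed) carried floxed Stat3 alleles together with a CD4 Cre, and the cells labelled WT carried the floxed alleles (STAT3floxed) and no Cre in their label. Deletion by a CD4 Cre starts in the thymus and reaches the whole alpha beta T cell lineage, so it precedes the culture. Sorted naive cells (CD4+, CD44-, CD62L+) of both genotypes received antibodies against CD3 and CD28 for 3 days, with medium alone, IL-6 at 10 ug/ml, TGFb at 2.5 ug/ml, or both cytokines at those doses. Neither the age and number of the mice nor the origin of the replicates is stated. Xist, which marks female cells, was high on all replicate 1 and low on all replicate 2 arrays, so the 2 numbers stand for mice of different sex, and each p-value rests on the spread among these samples alone.

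IL-17A is the cytokine that gives Th17 cells their name. These helper T cells arise when a naive cell receives TGFb together with IL-6, and they act against extracellular bacteria and fungi and in autoimmune inflammation. IL-6 signals through gp130 (Il6st) and JAK kinases to STAT3, which enters the nucleus and, with the nuclear receptor RORa and the factors BATF, IRF4 and RUNX1, drives transcription at the Il17a-Il17f locus. The secreted protein binds a receptor made of IL-17RA and IL-17RC, whose adaptor Act1 (Traf3ip2) leads to NF-kB and C/EBP factors in the responding cell.

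Il17a lies on the plus strand of chromosome 1 (GRCm38.p6, chr1:20730905-20734496, 3592 bases from start to end of the gene). The 250 bases before its start (chr1:20730655-20730904, plus strand, from RefSeq) are shown because the factors read in the comparisons below bind DNA motifs that can be looked for in them; capitals mark, from left to right, AP-1, ROR, RUNX and TATA matches.
Il17a promoter: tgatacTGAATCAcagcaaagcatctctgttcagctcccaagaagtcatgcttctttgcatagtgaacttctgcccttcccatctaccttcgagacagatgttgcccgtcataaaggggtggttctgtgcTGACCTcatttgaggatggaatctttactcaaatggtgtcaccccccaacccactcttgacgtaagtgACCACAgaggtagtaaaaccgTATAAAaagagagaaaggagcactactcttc

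Motifs were searched on both strands, and none of the matches overlapped. The AP-1 motif TGANTCA, which BATF and FOSL2 complexes recognise, matched once, at 244 to 238 bases before the start, and 6.75% of 32851 promoter windows of this length held it. The ROR half-site AGGTCA matched on the minus strand at 120 to 115 bases (14.02% of windows), and the RUNX core TGTGGT on the minus strand at 52 to 47 bases (14.05%). TATAAA matched at 31 to 26 bases before the start (12.37%). The STAT motif TTCNNNGAA had 0 matches in these 250 bases, and 7.02% of windows held it. A match describes letters and is not a binding site, and the lack of one says only that these letters are not in this window.

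The cultures read as T cells. Of 8 T cell markers 6 were measured, with a median of log2 11.7. All measured CD8 T cell (2), B cell (4), myeloid (7), mast cell (4) and innate-like T cell (2) markers stayed under log2 8 on every array. The NK cell list did not, with Klrd1 up to 12.85 and Eomes up to 8.34, nor did the gamma delta T cell list, with Cd163l1 up to 8.12. Stat3 served as the check of the labels. Its brightest probe set, 1460700_at, read log2 11.82 and 12.18 in WT cells with IL-6 and TGFb, and 9.01 and 9.56 in their STAT3-deficient counterparts. Over all conditions the WT arrays lay between 10.22 and 12.18 and the STAT3-deficient arrays between 8.40 and 10.46, so the ranges overlap: STAT3-deficient TGFb replicate 2 was above WT medium replicate 1. Of the other Stat3 probe sets, 1426587_a_at differed between the genotypes under both cytokines by -2.67. The differences of 1424272_at (-0.40) and 1459961_a_at (-0.64) were smaller. Whether any of these probe sets lies in the deleted exons is not known here.

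On each array the Il17a value was taken as deposited, an intensity on a linear scale, and its log2. In WT cells in medium the intensity was 77 on replicate 1 and 68 on replicate 2 (log2 6.27 and 6.09). With IL-6 alone WT cells read 62 and 76 (log2 5.95 and 6.25), and with TGFb alone 84 and 68 (log2 6.39 and 6.09). With both cytokines WT cells read 1143 and 3072 (log2 10.16 and 11.59). The values with either cytokine alone lay around those of medium, and both arrays with the combination lay far above all other WT arrays without overlap.

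STAT3-deficient cells read 76 and 66 in medium (log2 6.25 and 6.04) and 66 and 68 with IL-6 (log2 6.04 and 6.09). With IL-6 and TGFb they read 78 and 91 (log2 6.29 and 6.51), the values that in WT cells were 1143 and 3072. With TGFb alone the replicates parted: replicate 1 read 748 and replicate 2 read 67 (log2 9.55 and 6.07). Il17a was thus bright on 3 of the 16 arrays, namely both WT arrays with the 2 cytokines and STAT3-deficient TGFb replicate 1. The other 13 arrays lay between 62 and 91 (log2 5.95 to 6.51, median 6.09), close to the array medians of 66 to 73, and no order is read among them.

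**Figure D1:**
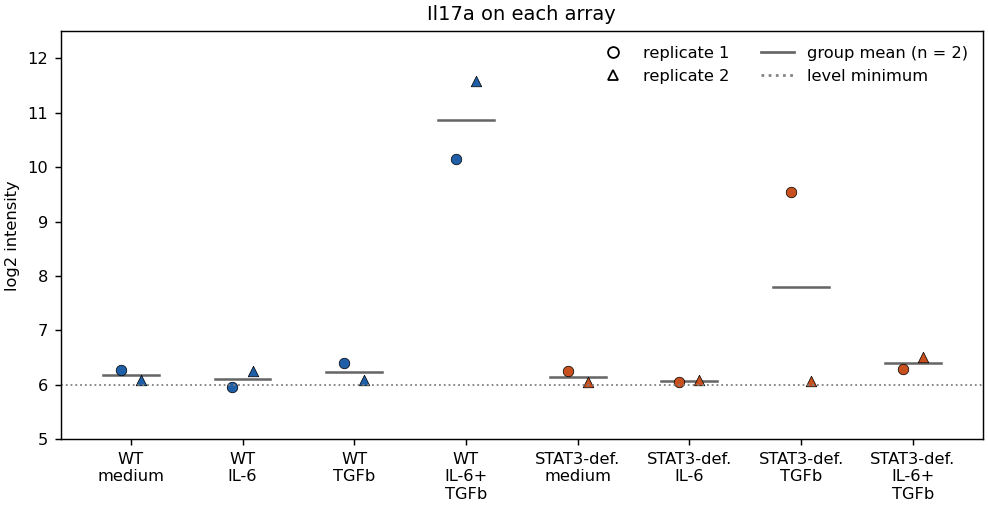
Log2 intensity of the Il17a probe set on each of the 16 arrays, by genotype and condition (circle replicate 1, triangle replicate 2, grey bar the group mean of n = 2, dotted line the level minimum of log2 6). Both WT arrays with IL-6 and TGFb (10.16 and 11.59) and STAT3-deficient TGFb replicate 1 (9.55) lie apart from the other 13 arrays, which lie between 5.95 and 6.51.

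As group means, WT cells with both cytokines stood first at log2 10.87 ± 1.01 (SD, n = 2), and STAT3-deficient cells with TGFb second at 7.81 ± 2.46. The other 6 groups lay together: 6.40 ± 0.16 in STAT3-deficient cells with both cytokines, 6.24 ± 0.22 in WT with TGFb, 6.18 ± 0.13 in WT medium, 6.15 ± 0.14 in STAT3-deficient medium, 6.10 ± 0.21 in WT with IL-6 and 6.07 ± 0.03 in STAT3-deficient cells with IL-6. Neighbours in this order differed by less than the larger of their SDs. The second place of the STAT3-deficient TGFb group rests on 1 array. In bulk RNA, fewer Il17a-expressing cells and less Il17a RNA per cell cannot be told apart.

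STAT3-deficient TGFb replicate 1 stands apart from its group, and results are given with and without it. This array was chosen after seeing the data, so a smaller SE without it is no further support. It read Il17a 11.2-fold above its own replicate 2, 8.9-fold above WT TGFb replicate 1 and 9.59-fold above STAT3-deficient IL-6 with TGFb replicate 1. WT arrays with both cytokines were 1.53-fold and 4.11-fold brighter than it. Its Stat3 level of 8.46 was below every WT array. Of the 13007 genes that passed the level minimum, 15% differed by at least 1 on the log2 scale between these replicates, against 1.75% to 11.9% in the other 7 groups. The Il17a difference of 3.48 ranked 16th of 13007 among differences in that direction. The pair had the lowest correlation across genes of any group (r = 0.906, others up to 0.981). The array was nearest to STAT3-deficient IL-6 with TGFb replicate 1 (r = 0.957), and its replicate 2 to WT TGFb replicate 2 (r = 0.992). A nearest array in another group was usual in this series: only the WT arrays with both cytokines were nearest to each other. Whether the culture label of either STAT3-deficient TGFb array is right was not tested. This group carried 83.8% of the residual sum of squares of Il17a and the WT group with both cytokines 14.1%. The residual SD of Il17a was 0.95, above the median of 0.285 over all genes, and 2.48% of genes had a larger one.

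Other genes on that array did not all go with Il17a. Rora, which encodes RORa, read 10.35 there and 9.19 on replicate 2. Ccl20, a chemokine of Th17 cells, read 11.03 and 8.56. Il21, a cytokine that STAT3 drives, read 5.32 and 4.32, both under the level minimum. Socs3, the feedback inhibitor of IL-6 signalling, read 7.72 and 10.76, and Tbx21, which encodes the Th1 factor T-bet, 5.04 and 9.05. Array 1 was thus higher in Ccl20 and in the brightest probe set of Rora, and lower in Socs3 and Tbx21. Such gaps between replicates 1 and 2 were not particular to it. In WT medium Socs3 read 7.39 and 10.46 and Tbx21 5.88 and 10.26, and in WT TGFb Ccl20 read 9.99 and 8.35. Others went the other way, such as Tbx21 in WT TGFb (9.82 and 8.29) and Ccl20 in WT cells with both cytokines (9.53 and 10.70). The part of the replicate number in the gaps of the STAT3-deficient TGFb group was not tested. Of the 59 genes called higher in WT cells when IL-6 was added to TGFb, 11 (18.6%) were at least 2-fold higher on replicate 1 than on replicate 2 of this group, beside 4.25% of all genes. That count was 0 in STAT3-deficient medium, 2 (3.39%) with IL-6 and 1 (1.69%) with both cytokines, beside 2.01%, 1.75% and 0.984% of all genes. In the TGFb group 5 of the 59 were at least 2-fold higher on replicate 2 instead. Over all genes 15% differed at least 2-fold in this pair in either direction, more of them higher on replicate 2. Il17a is itself one of the 59 and one of the 11, so the 18.6% partly restates the Il17a difference between these replicates. Among 3 measured markers of gamma delta T cells, which can make IL-17A, the summed log2 level was 21.8 on this array, 19.7 and 19.4 on the WT arrays with both cytokines and 19.2 to 21.5 on the others. Of the 3, Blk differed most, at 7.56 against 5.78 on replicate 2. Cd163l1 read 7.62 and 7.08, and Sox13 6.63 and 6.49; T cell receptor gamma and delta genes of the list were not analysed here. The 4 measured B cell markers summed to 25.2 on this array and to 22.43 to 24.96 on the others. Cd79b (6.54) and Pax5 (6.60) had their highest value there. Cd79a (5.83) and Ms4a1 (6.23) did not, with up to 5.86 and 7.40 on other arrays. The part of these in the Il17a value was not tested.

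The first question was how much Il17a depends on STAT3 when cells receive the Th17 cytokines. With IL-6 and TGFb the STAT3-deficient cells read Il17a 22.2-fold lower than WT cells, near the level of cells in medium. The lower values of Il17a lie near the array medians and no detection call was used, so this fold and those over medium, IL-6 or TGFb depend on the background and may understate the change in RNA. It fell by 4.48 on the log2 scale (SE 0.81, 95% confidence interval -6.26 to -2.69, limma, adjusted p = 0.0234), and 1.19% of genes were called in this comparison, 0.984% lower and 0.208% higher. Called means an adjusted p under 0.05 after Benjamini-Hochberg adjustment over all 13007 genes. With the replicate number as a block, which compares arrays of the same number, 322 rather than 155 genes were called, Il17a among them (adjusted p = 0.0164). Il17a ranked 9th of 13007 by the size of its fall. Both replicate numbers showed it: replicate 1 differed by -3.87 (14.7-fold) and replicate 2 by -5.08 (33.8-fold). Without STAT3-deficient TGFb replicate 1, an array outside this comparison, the change was the same and the SE dropped to 0.365. That array was chosen after seeing the data, and its group carried 83.8% of the residual sum of squares of Il17a. The smaller SE follows from leaving it out and is no further support. The call was lost whichever of the 4 arrays compared was left out (changes -5.19 to -3.76, adjusted p = 0.0839 to 0.232), although the lowest WT array lay 3.65 above the highest STAT3-deficient array.

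In the other 3 conditions no genotype difference in Il17a was called. The log2 difference of STAT3-deficient minus WT was -0.03 in medium (95% confidence interval -1.82 to 1.75), where 0% of genes were called (limma, 17 genes at an unadjusted p under 0.05, 0 with the replicate block). It was -0.04 with IL-6 (-1.82 to 1.75), where 3.29% of genes were called (428, and 1490 with the block). With TGFb the difference was 1.57 (-0.22 to 3.35), and 0% of genes were called (89 at an unadjusted p under 0.05, 0 with the replicate block). That TGFb value rests on replicate 1, which gave 3.15 where replicate 2 gave -0.02. It became -0.17 without STAT3-deficient TGFb replicate 1, and 3.31 (limma, adjusted p = 0.0265) without replicate 2. Apart from that array, all values compared here lie in the range of 62 to 91, where a difference in RNA may not show.

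The next question was which cytokine raised Il17a in WT cells. IL-6 alone changed it by -0.08 (95% confidence interval -1.86 to 1.71, 0.284% of genes called) and TGFb alone by 0.06 (-1.72 to 1.85, 0.223% called). The combination raised it 25.9-fold over medium (log2 change 4.69, 2.91 to 6.48, limma, adjusted p = 0.0109). In that comparison 3% of genes were called, with 2.14% of all genes higher, and Il17a ranked 18th by its rise. Adding TGFb to IL-6 gave a 27.3-fold rise (4.77, adjusted p = 0.02, 0.953% of genes called and 0.746% higher, rank 7). Adding IL-6 to TGFb gave a 24.8-fold rise (4.63, adjusted p = 0.0307, 0.507% called and 0.454% higher, rank 6). These 3 comparisons share the 2 arrays with both cytokines. Their replicates gave rises over medium of 3.89 and 5.50, over IL-6 of 4.20 and 5.34 and over TGFb of 3.77 and 5.50.

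The 3 calls depended on the number of arrays. With 1 of the 4 arrays of a comparison left out, the rise over medium lay between 3.98 and 5.41 and stayed called only without WT IL-6 with TGFb replicate 1 (adjusted p = 0.0371 to 0.113). The rise over IL-6 stayed called only without WT IL-6 replicate 2 (4.06 to 5.48, adjusted p = 0.033 to 0.244), and the rise over TGFb in none (3.92 to 5.35, adjusted p = 0.107 to 0.313). Leaving out STAT3-deficient TGFb replicate 1, chosen after seeing the data, kept all 3 rises the same. It shrank their SE to 0.365, which is no further support. Markers of NK cells did not move as a set: 4 of 5 listed genes were measured. Their summed log2 level was 31.5 and 31.7 on the WT arrays with both cytokines, 23.2 on STAT3-deficient TGFb replicate 1 and 22.5 to 29.4 on the others. On the WT arrays with both cytokines Klrd1 read 12.06 and 12.85 and Klre1 7.55 and 7.19, the highest values of both genes. Eomes, a factor of NK and cytotoxic T cells, was not high there, at 6.44 and 6.13 in a range of 5.78 to 8.34. The defining NK marker Ncr1 read 5.39 and 5.49 there and 5.21 to 5.81 over all arrays. The part of these cells in the result was not tested.

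In STAT3-deficient cells no change of Il17a with cytokines was called. IL-6 changed it by -0.08 against medium (95% confidence interval -1.87 to 1.71), and 0% of genes were called (173 at an unadjusted p under 0.05, 0 with the replicate block). The combination changed it by 0.25 against medium (-1.54 to 2.04, 0.138% of genes called, 0.131% higher) and by 0.33 against IL-6 (-1.45 to 2.12, 0.254% called). For both differences the upper bound lies below the WT rises of 4.69 and 4.77. TGFb against medium gave 1.66 (-0.13 to 3.45, adjusted p = 0.44, 0.354% called) with replicate 1 and -0.08 without it. The combination against TGFb gave -1.41 (-3.20 to 0.38, 0% of genes called, 473 at an unadjusted p under 0.05, 0 with the replicate block) with that array and 0.33 without it. Leaving out replicate 2 instead turned these 2 changes into 3.40 (adjusted p = 0.00549) and -3.15 (adjusted p = 0.0398).

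Whether the response itself differed between the genotypes was tested as an interaction. The response to both cytokines over medium was 4.44 lower in STAT3-deficient than in WT cells (log2 difference -4.44, SE 1.15, 95% confidence interval -6.97 to -1.92). Adjusted over 13007 genes it was not called (limma, unadjusted p = 0.00253, adjusted p = 0.357), where 0.131% of genes were. Without STAT3-deficient TGFb replicate 1 the difference was the same (SE 0.516). The smaller SE follows from leaving out an array chosen after seeing the data. For both cytokines over IL-6 the difference was -4.44 as well (adjusted p = 0.624, 0.0154% of genes called), the largest fall of the 13007 genes. It was unchanged without that array. Over TGFb the difference was -6.04 (adjusted p = 0.105, 0.0769% called), and without the array -4.30. The response to TGFb over medium differed by 1.60 (-0.93 to 4.12), with 0% of genes called (35 at an unadjusted p under 0.05, 0 with the replicate block), and by -0.14 without that array.

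In WT cells the change of Il17a with both cytokines exceeded the sum of the 2 single changes on the log2 scale. This departure from additivity was 4.71 (95% confidence interval 2.18 to 7.23), the second largest of 13007 genes, with an unadjusted p of 0.0017. After adjustment it was not called (limma, adjusted p = 0.613, 0.0154% of genes called). Without STAT3-deficient TGFb replicate 1, chosen after seeing the data, it was 4.71 as well. The departure of 4.71 nearly equals the whole rise over medium of 4.69.

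**Figure D2:**
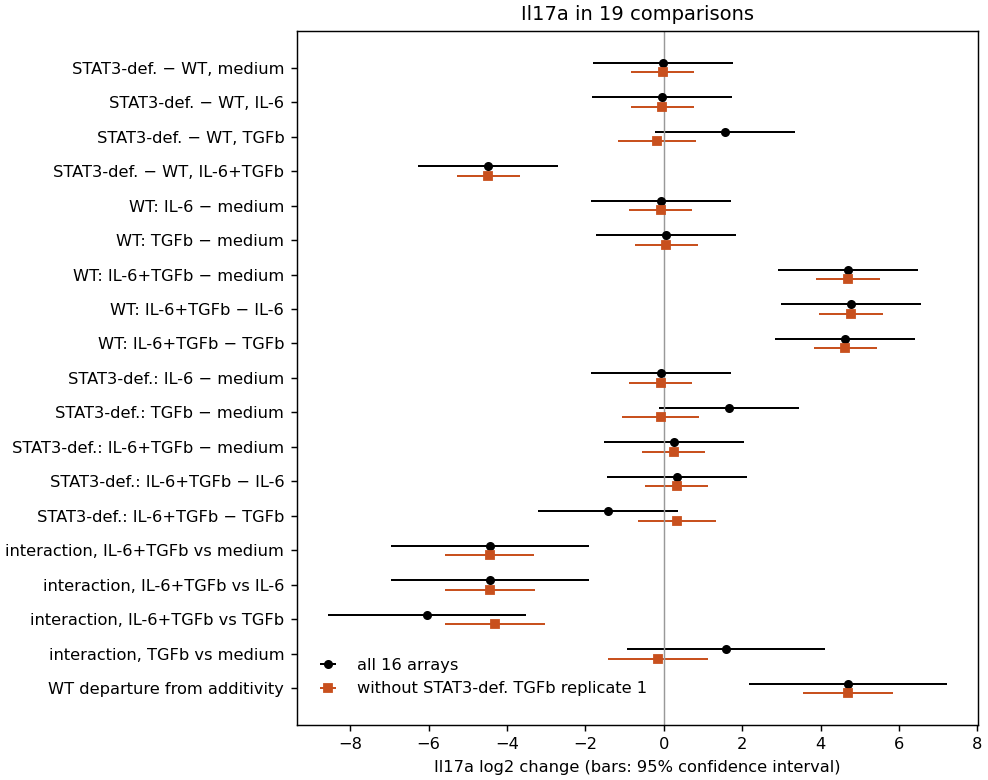
Log2 change of Il17a in 19 comparisons with its 95% confidence interval, from all 16 arrays (black circles) and without STAT3-deficient TGFb replicate 1 (orange squares). The fall without STAT3 under both cytokines (-4.48) and the 3 WT rises (4.69, 4.77 and 4.63) lie clear of 0 in both fits, and comparisons that use STAT3-deficient TGFb move when the array is left out.

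Of the IL-17 family of ligands and receptors, 9 of 11 listed genes were measured and 6 besides Il17a were tested; Il17f and Il17c were not analysed here. Under IL-6 with TGFb, 1 of the 6 was called lower in STAT3-deficient cells and 0 higher, with a median log2 difference of 0.28 beside 0.01 over all genes, of which 0.984% were lower and 0.208% higher. The one that fell was Il17ra, the receptor chain shared by several IL-17 cytokines. Its probe set 1420905_at read 12.21 and 12.14 in WT cells with both cytokines and 10.91 and 10.70 in STAT3-deficient cells, and 9.66 to 11.03 on the other 12 arrays. Both WT arrays with the combination lay above all others. The fall was 2.58-fold (log2 change -1.37, SE 0.27, limma, adjusted p = 0.037) and the WT rise over medium 4.44-fold (2.15, adjusted p = 0.00229). The genotype call was lost whichever of the 4 arrays was left out (adjusted p = 0.181 to 0.272), with quantile normalization (adjusted p = 0.0951) and with the other probe set, 1420904_at (-1.58, adjusted p = 0.317), while the WT rise stayed called without each array in turn (adjusted p = 0.00759 to 0.0277) and lost its call with 1420904_at (2.24, adjusted p = 0.0554).

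None of the other family members tested was called between the genotypes under both cytokines. The ligand Il17b lay between 6.36 and 7.67 on all arrays (genotype difference 0.59, limma, adjusted p = 0.613). The ligands Il17d and Il25 stayed under the level minimum, at no more than 5.32 and 5.78. Il17rc, the partner chain of IL-17RA, read 6.55 to 7.63 (0.48, adjusted p = 0.642). Il17rb, the receptor of IL-25, read 5.43 to 6.52, and Il17rd 5.17 to 6.27. Il17re, a receptor chain for IL-17C, was brightest of these at 8.01 to 9.22 and changed by -0.23 (adjusted p = 0.883). Its 3 highest values lay on the 3 arrays where Il17a was bright, at 9.22 on STAT3-deficient TGFb replicate 1 and 8.54 and 8.58 on the WT arrays, with at most 8.46 elsewhere. Downstream of the receptor, 0 of 15 tested genes of IL-17 signalling were called between the genotypes under both cytokines (limma, 0 with the replicate block, median difference 0.09), beside 1.19% of all genes. In WT over medium 0 of 15 were called (median 0.01, beside -0.04 over all genes), beside 3% of all genes. Beside such shares, a count of 0 in a list of 15 says little about its members. The largest differences were those of Cebpb, a C/EBP factor (-1.01, adjusted p = 0.711), Traf5, an adaptor (0.68, adjusted p = 0.469), Tnfaip3, the NF-kB inhibitor A20 (-0.68, adjusted p = 0.709), and Nfkbiz, a co-activator of IL-17 target genes (0.44, adjusted p = 0.847). Cebpd, another C/EBP factor, was below the level minimum by its brighter probe set. Its probe set of larger variance, 1423233_at, read 6.83 and 7.64 in WT cells with both cytokines and 4.70 to 5.95 on the other 14 arrays. With that probe set Cebpd was lower in STAT3-deficient cells by at least 2.36-fold, taken against the level minimum (measured log2 change -2.46). It passed the filter only through the WT arrays with both cytokines and was picked for its variance over these arrays, so no test is drawn from it.

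The factors and receptors that act on Il17a were a list of 27, of which 25 were measured and tested and the others were not analysed here. In WT cells with both cytokines 7 of the 25 were higher than in medium and 0 lower, with a median change of 1.12 beside -0.04 over all genes, of which 2.14% were higher. With the replicate block 10 were higher, where 833 rather than 390 of all genes were called either way. With the probe set of largest variance 5 were higher. Maf, a factor that binds cytokine genes, read 12.58 and 12.51 with both cytokines and 5.32 and 5.29 in medium. Since medium lay under the level minimum, the rise is at least 93.3-fold, taken against that minimum (measured log2 change 7.24, limma, adjusted p = 1.8e-05). Ahr, a ligand-activated factor that raises Th17 cytokines, rose at least 62.9-fold on the same basis (6.21, adjusted p = 0.000539). Rora rose 10.1-fold (3.34, adjusted p = 0.000811). Il1r1, the IL-1 receptor, rose 4.41-fold, Il6st, which encodes gp130, 3.4-fold, Tgfbr2, a TGFb receptor chain, 2.85-fold and the factor Foxo1 2.55-fold, with adjusted p = 0.0293, 0.048, 0.00914 and 0.0327. The calls of Maf, Ahr and Rora held without each of the 4 arrays in turn. Those of Il6st and Il1r1 were lost each time, and those of Tgfbr2 and Foxo1 in all but 1 case.

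Of the same 25 genes, 1 was lower and 0 higher in STAT3-deficient than in WT cells under both cytokines, with a median difference of -0.96 beside 0.01 over all genes (0.984% lower, 0.208% higher). That gene was Rora. It read 11.58 and 11.25 in WT cells and 8.29 and 8.47 in STAT3-deficient cells, an 8.2-fold fall (-3.04, SE 0.37, limma, adjusted p = 0.00268) that held without each array in turn (adjusted p = 0.0231 to 0.041). With the replicate number as a block 5 were lower, where 322 rather than 155 of all genes were called either way. The others were Stat3 (-2.72, adjusted p = 0.0502 without and 0.0052 with the block), Socs3 (-3.64, 0.184 and 0.0269), Fosl2, an AP-1 subunit (-3.08, 0.11 and 0.0124), and Il1r1 (-1.89, 0.0871 and 0.0124). Ahr and Maf differed by -2.45 (adjusted p = 0.116) and -1.81 (adjusted p = 0.128), and Batf, the AP-1 factor of Th17 cells, by -1.88 (adjusted p = 0.118). In STAT3-deficient cells Maf was at least 26.6-fold above medium with both cytokines (measured log2 change 5.39, adjusted p = 0.000519) and Ahr at least 11.5-fold (4.05, adjusted p = 0.0337), the only 2 of the 25 called there, beside 0.131% of all genes higher. Levels of Maf and Ahr were thus high on STAT3-deficient arrays with both cytokines (10.72 and 10.75, and 9.44 and 9.61), on which Il17a read 6.29 and 6.51. With TGFb alone they were high as well. Maf read 11.37 and 10.17 in STAT3-deficient and 9.92 and 9.90 in WT cells, and Ahr 8.45 and 9.34, and 9.74 and 8.59.

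Against TGFb alone, the WT combination raised 2 of the 25, Rora (2.11, limma, adjusted p = 0.0307) and Maf (2.63, adjusted p = 0.0348), beside 0.454% of all genes higher, and both calls were lost whichever of the 4 arrays was left out. On STAT3-deficient TGFb replicate 1, Rora (10.35) and Il1r1 (7.52) were above every array but the 2 of WT with both cytokines. Runx1 (9.85) and Tgfbr1 (11.96) had their highest value of the 16 arrays there. Foxp3, the regulatory T cell factor, had no such order. It read 4.81 on WT replicate 1 and 7.90 on WT replicate 2 with both cytokines, and 7.35 and 8.99 in STAT3-deficient cells (1.81, adjusted p = 0.759).

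**Figure D3:**
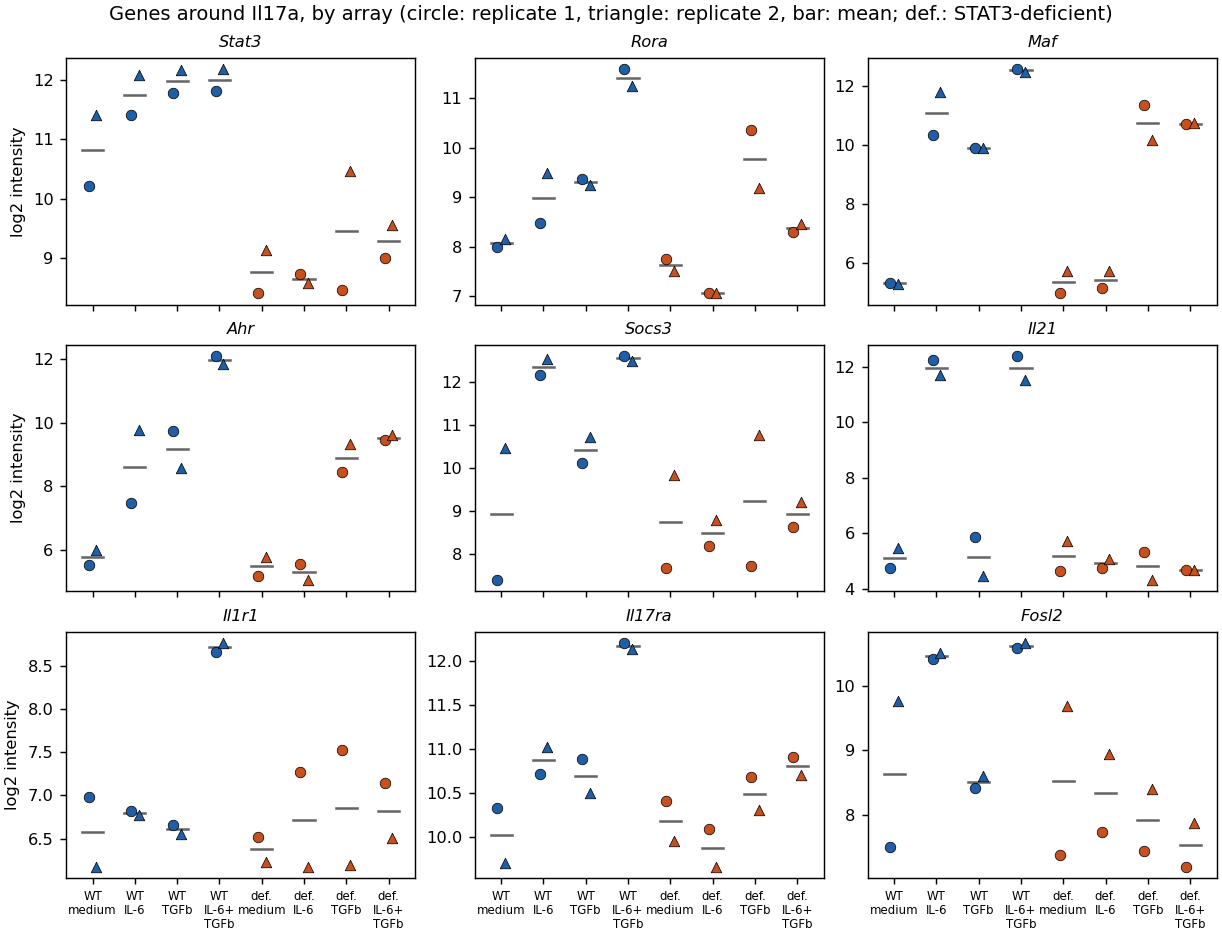
Log2 intensity by array of Stat3, 6 other genes that act on Il17a (Rora, Maf, Ahr, Socs3, Il1r1, Fosl2), the cytokine Il21 and the receptor Il17ra, by genotype and condition (circle replicate 1, triangle replicate 2, bar the group mean). Rora, Il17ra and Il1r1 are highest on both WT arrays with IL-6 and TGFb, as Il17a is, whereas Il21 is as high with IL-6 alone (12.23 and 11.72).

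Other helper T cell cytokines shared the pattern of Il17a only in part. Of 17 listed, 15 besides Il17a were measured and tested, and Il17f and Il22 were not analysed here. Under both cytokines 1 of 15 was lower without STAT3 and 0 higher (median difference 0.34; 0.984% of all genes lower), and in WT cells 1 was higher than in medium and 0 lower (median change -0.70; 2.14% higher). The same gene made both counts: Il21 read 12.39 and 11.54 in WT cells with both cytokines and 4.70 on both STAT3-deficient arrays, under the level minimum. The fall was at least 62.4-fold against that minimum (measured log2 change -7.26, limma, adjusted p = 0.00027). Unlike Il17a it was also high in WT cells with IL-6 alone, at 12.23 and 11.72, where Il17a read 5.95 and 6.25. Il10, an anti-inflammatory cytokine, differed by -4.04 between the genotypes (adjusted p = 0.0783). Tnf, the gene of tumour necrosis factor, differed by 1.15 (adjusted p = 0.0762, and 0.0292 with the replicate block). Ifng, the Th1 cytokine gene, read 9.83 and 10.97 in STAT3-deficient and 5.70 and 5.13 in WT cells with both cytokines (4.99, adjusted p = 0.326). Ccl20 read 9.53 and 10.70 on the WT arrays and 10.85 and 10.80 on the STAT3-deficient arrays of that condition (0.71, adjusted p = 0.841), so it was high on both of the latter, where Il17a was not.

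The genes most like Il17a were taken as the 10 with the highest Pearson correlation with it over the 16 arrays, as a description. They were Prr29 (r = 0.95), Ssh2 (0.93), Acpp (0.93), Tgfbi (0.90), Cxcr5 (0.90), Lonp2 (0.90), Dnm3 (0.89), Aplp2 (0.89), Trp53i13 (0.89) and Il1r1 (0.89). All 10 had their 3 highest values on the arrays where Il17a had them, which 230 of the 13007 genes did, so the correlations rest on 3 arrays. Acpp, which encodes an acid phosphatase, read 8.79 and 9.28 on the WT arrays with both cytokines, 8.54 on STAT3-deficient TGFb replicate 1 and 4.91 to 7.09 on the other 13. Cxcr5, the chemokine receptor of follicular helper T cells, read 7.67, 8.19 and 8.67 on these 3 arrays and 4.75 to 6.17 elsewhere. Ssh2, which encodes a cofilin phosphatase, read 12.31, 12.58 and 11.34, and 9.93 to 11.02 elsewhere. Prr29 read 6.83, 7.90 and 6.75, and 5.25 to 5.93 elsewhere.

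The choice of likeness decided the names. Of the 10 genes, 2 (Prr29 and Ssh2) were among the 10 most like Il17a without STAT3-deficient TGFb replicate 1, 3 with group means in place of arrays, 0 with Spearman's rho and 0 without the WT arrays under both cytokines. Among the listed regulators, Rora ranked 47th of 13006 by r (0.83), Ahr 459th (0.63) and Maf 685th (0.57), and the receptor Il17ra ranked 101st (0.78). Il21 ranked 958th (0.51) and Socs3 2137th (0.33), both high in WT cells with IL-6 alone.

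**Figure D4:**
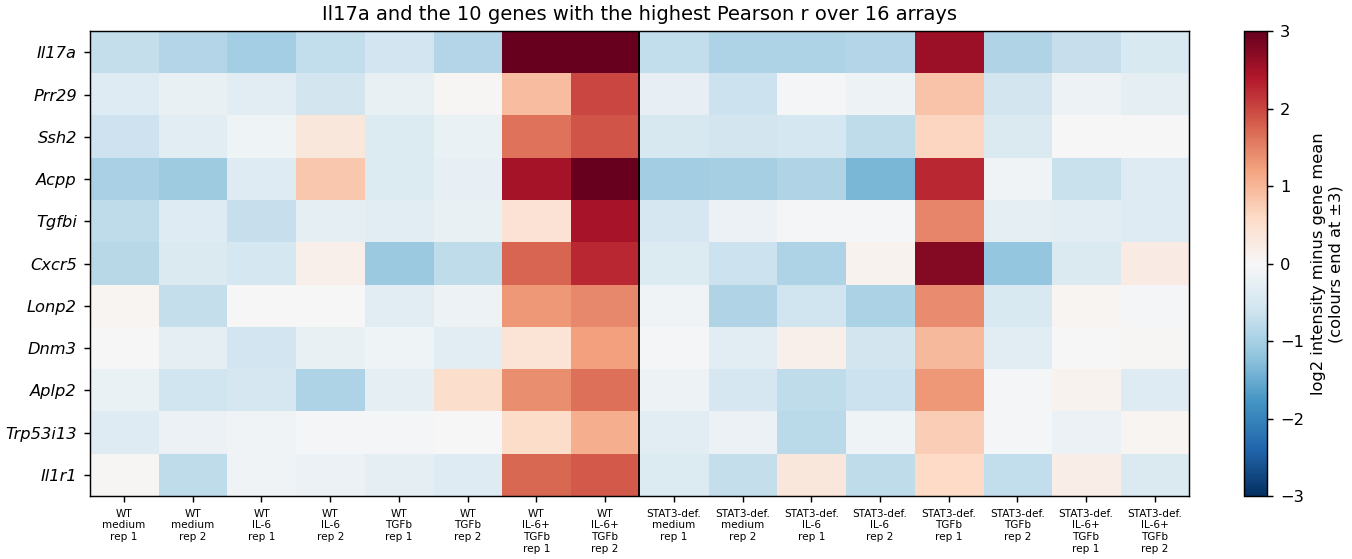
Log2 intensity minus the mean of each gene over the 16 arrays, for Il17a and the 10 genes with the highest Pearson r with it (rows) on each array (columns, WT left and STAT3-deficient right of the line; colours end at 3 above and below the mean). The 2 WT arrays with IL-6 and TGFb and STAT3-deficient TGFb replicate 1 are the 3 highest in every row.

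Of the genes near Il17a on chromosome 1, Mcm3 and Paqr8 were tested and not called between the genotypes under both cytokines. On the side of lower coordinates Defb41, Tfap2d, Tfap2b and Pkhd1, genes of epithelial and developing tissues, stayed under the level minimum at no more than 5.09. On the other side lies Il17f (chr1:20777146-20785274), which was not analysed here. Mcm3, a subunit of the replicative helicase, read 10.39 to 11.84 (genotype difference under both cytokines 0.53, limma, adjusted p = 0.732). Paqr8, a membrane progestin receptor gene, read 7.29 and 7.55 on the WT arrays with both cytokines, against 6.86 and 6.23 without STAT3 (-0.88, adjusted p = 0.505). The WT arrays were its 2 highest, followed by 7.24 in WT medium replicate 1, and it read 7.13 and 6.09 on the STAT3-deficient TGFb arrays.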

How the data were processed

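RNA of 16 samples was hybridised to 1 array each. The labels' protocols name MirVana for RNA isolation and MessageAmpII for biotin labelling. Per the submitters' processing notes the authors used RMA, whose version and settings are not stated. What they deposited is an intensity per probe set, linear and in whole numbers (100%) from 6 to 37243, and how the usual log2 output of RMA became linear is not stated. Detection calls and scanner files were not used here, and 0 columns of other samples were present. Array number limits precision, and no 2 arrays were identical (0 pairs).

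Of 45101 probe sets 64 controls were left out; 34945 had 1 symbol, 932 several and 9160 none, and 34741 of the 34945 were found by Entrez number in the GRCm38.p6 table. A gene with several probe sets was represented by the one with the highest mean. The deposited intensity was log2-transformed, without a pseudocount. Genes at log2 6 or above on at least 2 arrays were tested (13007, with 5186 set aside). Limma 3.58.1 (R 4.3.3) fitted 8 group means over 16 arrays (8 residual and 3.27 prior degrees of freedom), with lmFit, contrasts.fit, eBayes, two-sided tests and Benjamini-Hochberg adjustment within each of 19 comparisons. The code was tested on simulated data. Figures used matplotlib 3.10.9 (Python 3.11.15, pandas 2.3.3).

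Titles number replicates 1 and 2 in each group. Over 28 pairs of groups, deviations of same-numbered arrays correlated at 0.11 to 0.86 (median 0.33), so the numbers were taken to pair the samples; Xist read 11.91 to 13.21 on all 8 replicate 1 arrays and 6.64 to 7.60 on all 8 replicate 2 arrays, which separates material of different sex by number.

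Named were the IL-17 family, called members of each other list (or up to 4 of the largest changes where none was called), the 10 genes most like Il17a, measured genes among the 4 neighbours on each side and Stat3. Foxp3, Ifng, Il10, Tnf, Ccl20, Tbx21, Socs3, Fosl2, Batf, Blk, Cd163l1, Sox13, Cd79a, Cd79b, Pax5, Ms4a1, Klrd1, Klre1, Ncr1, Eomes, Runx1, Tgfbr1, Stat5b and Cebpd were added after their values were seen. The gene and the lists were chosen with earlier results of these data known. Alternatives were the replicate block, other filters, normalization, a pseudocount of 16, array weights, a trend, fewer groups and arrays left out.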

Additional observations from a re-analysis of the deposited data

How the results depend on the processing

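Groups of 2 arrays and a probe set near background on 13 of 16 arrays limit these results, and a small difference within that range may not show. Over 19 comparisons of Il17a, 240 alternative values kept direction and side of the threshold, 15 lost a call, 9 gained one and 17 changed sign. The replicate block, which pairs arrays of the same number, changed no Il17a call (genotype difference with both cytokines -4.48, adjusted p = 0.0164). Over all genes it raised the counts called in WT cells from 37 to 218 for IL-6, 29 to 62 for TGFb and 390 to 833 for both over medium, 124 to 243 over IL-6 and 66 to 141 over TGFb. In STAT3-deficient cells they went from 46 to 196 for TGFb and 18 to 38 for both over medium and 33 to 110 over IL-6, and for the interactions of both cytokines from 17 to 27 over medium, 2 to 6 over IL-6 and 10 to 48 over TGFb. The fits without low-value filter, with the stricter filter, a pseudocount of 16 and a trend changed no Il17a call either. Quantile normalization turned the WT change with TGFb over medium to -0.0036. With only the arrays compared, the WT rise over IL-6 of 4.77 lost its call (adjusted p = 0.0665). Array weights made the interaction over TGFb of -6.04 a call (adjusted p = 0.0427). Without replicate 1 of both STAT3-deficient TGFb and STAT3-deficient IL-6 with TGFb, STAT3-deficient minus WT under TGFb was -0.17, STAT3-deficient TGFb over medium -0.080, both cytokines over TGFb 0.44, and the interaction of TGFb over medium -0.14, and the departure from additivity of 4.71 became a call (adjusted p = 0.04999). Leaving out STAT3-deficient TGFb replicate 1 also from comparisons that do not use it, chosen after seeing the data, made the interactions of both cytokines over medium (-4.44) and over IL-6 (-4.44) and the departure from additivity (4.71) calls. These calls follow from the smaller SE at the same change and are no further support.

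With each array of a comparison left out in turn, STAT3-deficient minus WT lay between -0.13 and 0.071 in medium, -0.18 and 0.11 with IL-6, -0.17 and 3.31 with TGFb, and -5.19 and -3.76 with both cytokines. In WT cells the ranges were -0.22 to 0.071 for IL-6 and -0.090 to 0.22 for TGFb over medium, and for both cytokines 3.98 to 5.41 over medium, 4.06 to 5.48 over IL-6 and 3.92 to 5.35 over TGFb. In STAT3-deficient cells they were -0.18 to 0.022 for IL-6 and -0.080 to 3.40 for TGFb over medium, and -3.15 to 0.44 for both cytokines over TGFb. The interactions ran from -5.16 to -3.73 over medium, -5.15 to -3.73 over IL-6, -7.78 to -4.19 over TGFb (adjusted p = 0.000809 without STAT3-deficient TGFb replicate 2) and -0.14 to 3.34 for TGFb over medium, and the departure from additivity from 3.99 to 5.42. A group left with 1 array is assumed to vary like the others.

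Among the lists, called members between genotypes under both cytokines went from 1 to 0 in the IL-17 family with quantile normalization or the probe set of largest variance. In receptor signalling they went from 0 to 1 with the latter (Cebpd, which passed the filter only through the WT arrays with both cytokines). Among the regulators they went from 1 to 5 with the replicate block, 2 with quantile normalization, 2 with the probe set of largest variance and 3 without STAT3-deficient TGFb replicate 1. Cytokines went from 1 to 2 with the block, with quantile normalization and without that array. In WT cells over medium the family went from 1 to 0 and signalling from 0 to 1 with the probe set of largest variance, and cytokines from 1 to 3 with the block and 2 without that array. The 3 regulators gained there with the block were Tgfbr1, Socs3 and Stat5b. Of the 10 genes most like Il17a, 0 were shared under Spearman's rho, 3 under group means, 0 without the WT arrays with both cytokines and 2 without STAT3-deficient TGFb replicate 1. For the changes above whose cause the alternative does not itself show, the cause was not tested.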
